A study of Rattus norvegicus with 6 samples.

Results

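Prl, Gh1, Pou1f1, Pitx1, Lhx3, Gata2 and Isl1 are the prolactin gene, the growth hormone gene and 5 transcription factor genes of pituitary lineages, and they are described here in RNA pulled down from GH4C1 cells. They were chosen by name: the 7 symbols were looked up among the 32883 gene rows of the count table, and each matched 1 row. GH4C1 is an established, wild-type rat pituitary cell line of the somatolactotroph type, the type that makes growth hormone and prolactin, kept here in medium that held horse serum at 15% and fetal calf serum at 2%. The study sought RNAs that touch the long noncoding RNA Neat1 directly. All 6 libraries came from cells treated with psoralen, which links base-paired strands, and strand-specific paired reads of 150 bases were made from the recovered RNA. They differ by the oligonucleotide pool used for the pull-down, Oligo Pool A or Oligo Pool B, with 3 libraries each. The labels do not say which sequences a pool holds, whether either pool is a control, or whether the libraries of a pool came from separate cultures. P-values therefore measure the spread between these libraries, which may be technical. RNA before the pull-down was not analysed here, so a difference between the pools is a difference in what the pools recovered.

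Prolactin and growth hormone are related peptide hormones, made by lactotrophs and somatotrophs of the anterior pituitary. Their genes are activated by Pou1f1, also called Pit-1, a POU homeodomain protein that lactotrophs, somatotrophs and thyrotrophs share. Pitx1, a homeodomain protein present throughout the developing anterior pituitary, and the LIM homeodomain protein Lhx3 act earlier in the lineage and also on hormone promoters. Gata2, a zinc finger protein, belongs to thyrotrophs and gonadotrophs, and Isl1, another LIM homeodomain protein, is known for early pituitary progenitors and for thyrotrophs.

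Of the 7 genes, 5 had enough counts to be judged, 10 or more in each library. Gata2 and Isl1 held no count in any library and are too low to judge. Prl and Pitx1 were higher with pool A, by 1.78-fold and 2.33-fold. Gh1, Pou1f1 and Lhx3 did not pass the threshold, an adjusted p under 0.05. No member was called higher with pool B, where 22.0% of all tested genes were. The 2 calls among 5 tested members stand against a background of 40.6% of all 11582 tested genes called in either direction, and 18.6% called higher with pool A, so a call by itself was common in this comparison.

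The libraries held between 1826390 and 3685899 counts, and a count of 0 allows up to 3 counts, or between 0.814 and 1.64 CPM, the usual unit in which a gene's count is divided by the sum of its library. These limits cover counting error only, as no molecular identifiers are stated. Fold changes set pool A over pool B and come from edgeR's quasi-likelihood test, with library totals scaled by TMM, a method that trims extreme genes before it sets a common scale. The TMM factors were between 0.903 and 1.014 in pool A and between 1.040 and 1.066 in pool B, so fold changes from the fit lie above ratios of CPM. Over all tested genes the median log2 fold change was 0.02. That median moved by -0.14 with total counts alone and by 0.10 with upper-quartile factors, and the members' values move with it.

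Prl (ENSRNOG00000017374) was the best covered member in every library. The stretch just before its RefSeq start site is shown because Pou1f1 and related factors act on DNA upstream of this gene. It is the 250 bases upstream of the RefSeq start in the GRCr8 assembly, chr17:38298218-38298467, minus strand, printed 5′ to 3′ with the match to ATGNATA in capitals:
Prl upstream: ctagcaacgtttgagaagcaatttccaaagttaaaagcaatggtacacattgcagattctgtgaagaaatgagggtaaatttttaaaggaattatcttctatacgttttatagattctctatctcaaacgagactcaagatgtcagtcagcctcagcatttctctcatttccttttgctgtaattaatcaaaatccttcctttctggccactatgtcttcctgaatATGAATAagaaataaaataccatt
ATGNATA, letters close to the core that Pou1f1 recognises, was searched on both strands. It was found 1 time, starting 24 bases before the RefSeq start. Of all 33469 upstream windows of this length in the RefSeq table, 8.73% hold ATGNATA. Whether GH4C1 cells start Prl RNA at that site was not tested, so the window may not be the stretch next to the start they use. TAATCC, the core that Pitx factors recognise, was not found in this window, and 6.34% of all windows hold it. The table held upstream sequence for 4 of the 7 members, and neither motif was found in the windows of Lhx3, Gata2 and Isl1. A match is a match of letters: the pull-down measured RNA and holds no reading of promoters.

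Prl RNA stood at 699, 759 and 680 CPM with pool A replicates 1, 2 and 3. With pool B it stood at 452, 498 and 386 CPM. Every pool A library was above every pool B library, on counts of 1920 to 2578 against 909 to 1326. Pool A averaged 713 ± 41 CPM (SD, n = 3) and pool B 445 ± 56 CPM (SD, n = 3). The log2 fold change was 0.83 ± 0.14 (SE), or 1.78-fold with a 95% interval from 1.47 to 2.16, and the edgeR adjusted p was 1.26e-05. Prl kept this direction and its side of the threshold under the 16 alternative settings tried, with log2 fold changes from 0.68 to 0.94. The difference was of ordinary size for these pools: 63.1% of the tested genes had a smaller one, and the median size among called genes was 1.20 on the log2 scale. The spread of Prl between libraries of a pool was wider than counting alone gives. The chi-square of the 3 counts per degree of freedom, which is near 1 for pure counting error, was 6.63 with pool A and 16.1 with pool B.

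Gh1 (ENSRNOG00000011207), the other hormone gene, did not differ between the pools past the threshold. It had 172.0, 167 and 172 CPM with pool A, and 162, 187 and 149 CPM with pool B. The pool A values lay inside the range of pool B. The means were 170.2 ± 2.8 CPM (SD, n = 3) and 166 ± 19 CPM (SD, n = 3). The log2 fold change of 0.18 ± 0.14 (SE) came with an adjusted p of 0.33 in edgeR, and its 95% interval ran from 0.93-fold to 1.39-fold. The upper end of that interval lies below the lower end of the interval for Prl. A Gh1 difference of the size seen for Prl lies outside that interval. The 3 pool A libraries differed by no more than counting error, with a chi-square of 0.132 per degree of freedom, against 4.75 in pool B.

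**Figure D1:**
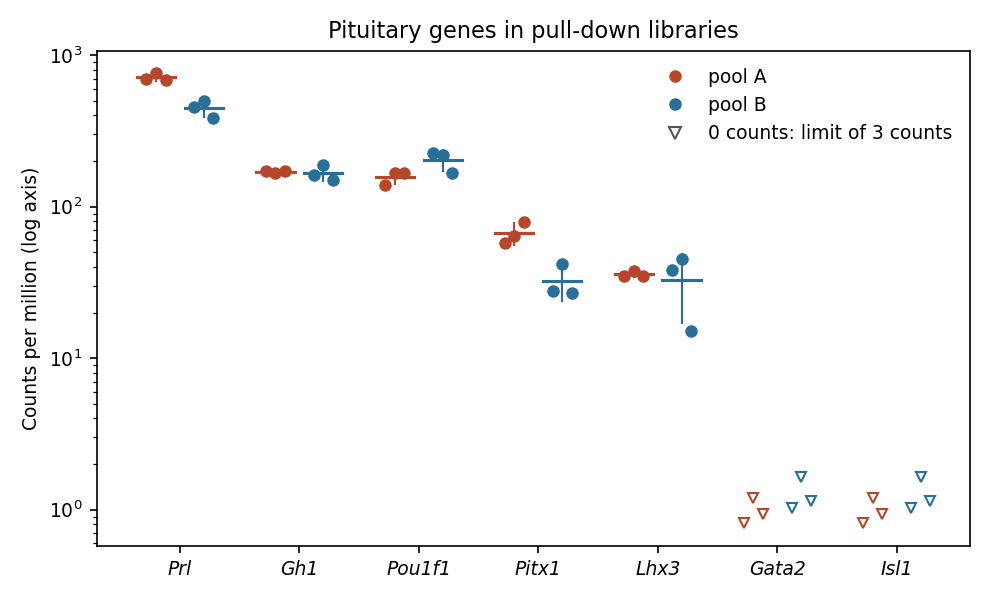
CPM (log axis) of the 7 genes in each library; points are libraries, horizontal lines are means and vertical lines are ± 1 SD of 3 libraries. Open triangles mark the limit of 3 counts for Gata2 and Isl1, which held 0 counts. The points of Prl and Pitx1 do not overlap between the pools, and 1 pool B library of Lhx3 lies at 15.1 CPM, below the other libraries of that gene.

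Pou1f1 (ENSRNOG00000000715), the activator of both hormone genes, leaned the other way without passing the threshold. Its values were 139, 166 and 167.2 CPM with pool A. They were 227, 218 and 167.2 CPM with pool B. The highest pool A library and the lowest pool B library met at the same rounded value, and on TMM-scaled totals the ranges overlapped. Pool A averaged 158 ± 16 CPM (SD, n = 3) and pool B 204 ± 32 CPM (SD, n = 3). The log2 fold change was -0.23 ± 0.15 (SE), with a 95% interval from 0.691-fold to 1.06-fold and an edgeR adjusted p of 0.245. Over the alternatives it ranged from -0.37 with total counts alone to -0.12 with upper-quartile factors, and the smallest adjusted p was 0.0624. Chmp2b, a gene of membrane sorting in the next row of the table, averaged 42.3 ± 4.5 CPM in the pool A libraries (SD, n = 3) and 26.2 ± 8.8 CPM in those of pool B (SD, n = 3). Whether the counting separated reads of the 2 rows is not given in the sources used here.

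Pitx1 (ENSRNOG00000011423) showed the largest difference of the 5 tested members. With pool A it had 57.8, 63.7 and 79.7 CPM. With pool B it had 27.9, 41.6 and 26.9 CPM. The ranges did not overlap, and the counts behind them were 161 to 254 and 71 to 82. The means were 67 ± 11 CPM (SD, n = 3) and 32.1 ± 8.2 CPM (SD, n = 3). The log2 fold change of 1.22 ± 0.22 (SE), or 2.33-fold with a 95% interval from 1.70 to 3.18, came with an adjusted p of 5.14e-05 in edgeR. It stayed between 1.08 and 1.41 and past the threshold under the same alternatives as for Prl. Of the tested genes, 78.3% had a smaller difference in either direction.

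Lhx3 (ENSRNOG00000018427) was even across 5 libraries and low in 1. It had 35.0, 37.6 and 34.8 CPM with pool A. With pool B it had 38.2 and 44.9 CPM in replicates 1 and 2, and 15.1 CPM, on 40 counts, in replicate 3. The pool A values lay inside the range of pool B. The log2 fold change of 0.29 ± 0.29 (SE) came with an adjusted p of 0.453 in edgeR and a 95% interval from 0.813-fold to 1.85-fold, wider than those of Gh1 and Pou1f1. Without pool B replicate 3 it was -0.056, with an adjusted p of 0.901, so its sign rests on that library. Tmem250, the row before Lhx3, was also lowest within pool B in replicate 3, at 10.2 CPM against 30.0 and 29.6 CPM. Qsox2, the row after Lhx3, was not, at 347 CPM against 318 and 374 CPM. Both neighbours were higher with pool B. The log2 fold change was -1.32 ± 0.46 (SE; edgeR adjusted p = 0.0219) for Tmem250 and -1.17 ± 0.14 (SE; edgeR adjusted p = 1.17e-07) for Qsox2. Tmem250 kept its call under 13 of 16 alternatives. Whether reads were shared among these rows was not tested.

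**Figure D2:**
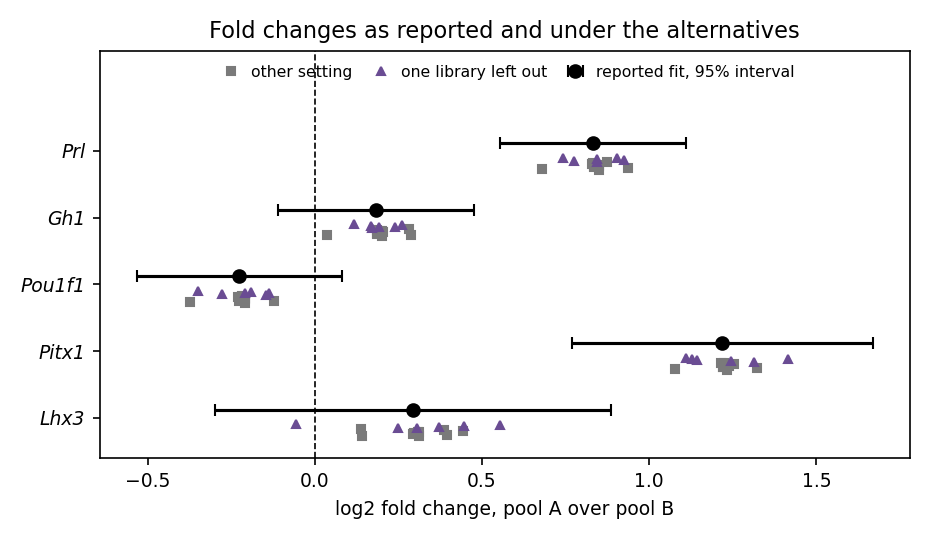
Log2 fold changes of the 5 tested genes, pool A over pool B. Black points with bars are the reported values with 95% intervals, grey squares other scalings, filters, tests, the replicate block or thinned counts, and triangles fits with 1 library left out. Prl and Pitx1 stay right of 0 under the settings shown, Gh1 and Pou1f1 keep their sides near 0, and Lhx3 crosses 0 in 1 fit.

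Gata2 (ENSRNOG00000012347) and Isl1 (ENSRNOG00000012556) had 0 counts in all 6 libraries, out of 16805659 counts. Per library this allows up to between 0.814 and 1.64 CPM of either gene, and over the 6 libraries together up to 0.179 CPM. No fold change can be given, and nothing can be said of a difference between the pools. At this depth their absence from the libraries also cannot be told apart from RNA that neither pool recovered.

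Of the 5 judged members, 3 had CPM ranges that were apart, Prl, Pitx1 and Pou1f1, against 49.1% of all tested genes. Pou1f1 was apart only past the rounded digits, and on TMM-scaled totals 2 members were apart, Prl and Pitx1.

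**Figure D3:**
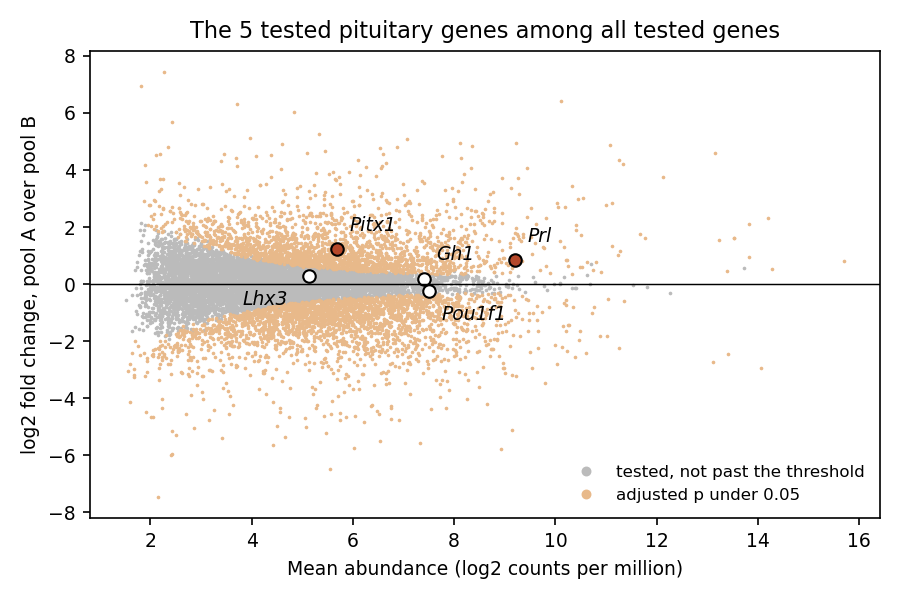
Log2 fold change against mean abundance (log2 CPM from the fit) for the 11582 tested genes, with the 5 tested members labelled. Orange points passed the threshold, and grey points did not. Filled large circles mark Prl and Pitx1, which passed, and open ones mark Gh1, Pou1f1 and Lhx3; the members lie within the cloud of other genes.

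Ratios between members inside a library do not depend on how libraries are scaled. For each library there were 4.07, 4.55 and 3.96 Prl counts per Gh1 count with pool A. With pool B there were 2.79, 2.66 and 2.58. The pools did not overlap, and the ratio was 1.56-fold higher with pool A. Prl counts per Pou1f1 count were 5.02, 4.57 and 4.07 with pool A. They were 1.99, 2.28 and 2.31 with pool B, a 2.07-fold difference without overlap. In each pool A library Prl counts were higher relative to the other hormone gene and to its activator than in any pool B library.

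Pou1f1 and Pitx1 had the ratio that differed most of the 10. There were 2.41, 2.61 and 2.10 Pou1f1 counts per Pitx1 count with pool A. With pool B there were 8.12, 5.24 and 6.23, so the log2 ratio differed by -1.44 between pool A and pool B. Gh1 counts per Pou1f1 count were 1.233, 1.005 and 1.026 with pool A and 0.715, 0.859 and 0.894 with pool B, without overlap and 1.32-fold apart. For Prl and Pitx1, both higher with pool A, the ratio overlapped between the pools. It ran from 8.54 to 12.1 with pool A and from 11.96 to 16.2 with pool B. The log2 ratio differed by -0.39, close in size to the 0.40 of Gh1 per Pou1f1, and the overlap rests on pool A replicate 1. Of 10 ratios between the 5 members, 6 did not overlap between the pools, against 54.4% of all gene pairs in which each gene had 10 counts or more throughout. In a two-sided exact permutation test each of the 6 reached p = 0.1, the smallest that 3 against 3 libraries can give, and p = 0.167 after Benjamini-Hochberg adjustment over the 10 ratios. The other 4 ratios had exact p-values from 0.2 to 1. With 3 libraries a pool no ratio could pass the threshold.

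**Figure D4:**
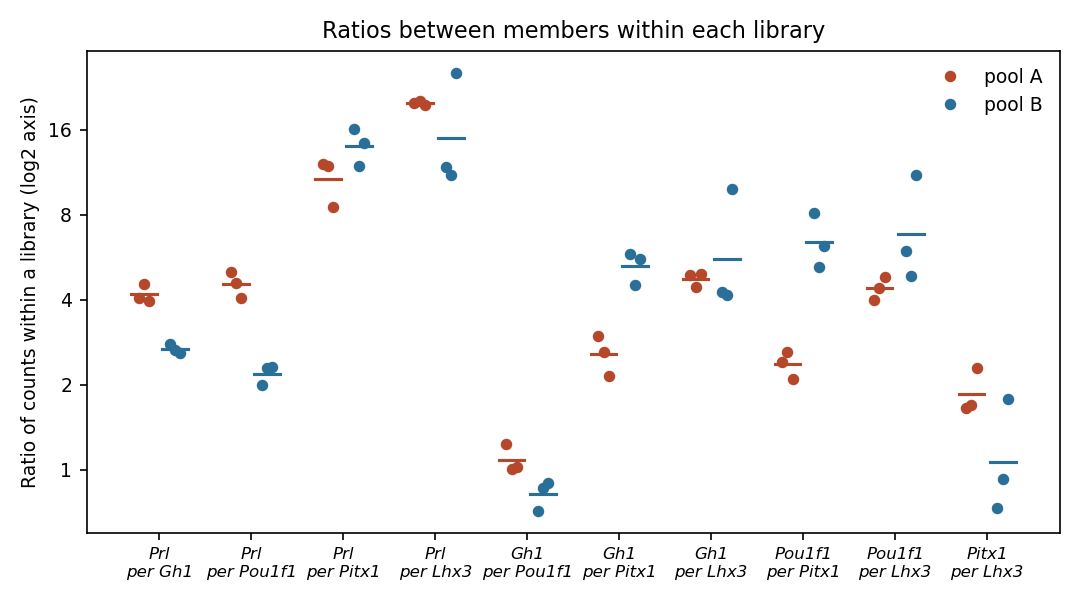
Ratio of the counts of 2 members within each library (log2 axis), for the 10 ratios among Prl, Gh1, Pou1f1, Pitx1 and Lhx3. Points are libraries and lines are geometric means; the points of the 2 pools are apart for Prl per Gh1, Prl per Pou1f1, Gh1 per Pou1f1, Gh1 per Pitx1, Pou1f1 per Pitx1 and Pou1f1 per Lhx3.

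The genes whose pattern over the 6 libraries was most like each member were taken by Pearson's r of log2 CPM, among 7274 genes that carry a symbol and reached 20 counts in each library. The points share library, depth and scaling, and r is given as a description. Actr3, an actin nucleation gene, and Fabp5, a fatty acid binding protein gene, were nearest to Prl (r = 0.997 for each), and 220 genes exceeded 0.95 with it. Nudt21 and Rps6kb1 were nearest to Pitx1 (r = 0.995 and 0.994), where 122 genes exceeded 0.95. With Gh1, Pou1f1 and Lhx3, 6, 21 and 4 genes exceeded 0.95. For Gh1 the nearest were Qrich1 and Pak4 (r = 0.991 and 0.962), for Pou1f1 Ap1m2 and Mast2 (r = 0.981 for each), and for Lhx3 Creb3l2 and Gna12 (r = 0.989 and 0.964). Over the same libraries Prl and Pitx1 had r = 0.93, Gh1 and Lhx3 had r = 0.84, and Prl and Pou1f1 had r = -0.55.

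Close relatives of the members were looked at next, since similar sequences can share reads. The table's 22 other genes of the prolactin family held 0 counts in all 6 libraries. Of 50 relatives listed, 48 were in the table, 29 of these had no count in any library and 7 passed the expression filter. Of the 7 tested, 1 passed for pool A and 2 passed for pool B, 42.9% against 40.6% of all tested genes, with a median log2 fold change of 0.06. Pitx3 had at most 6 counts in a library.

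Lhx4, the nearest relative of Lhx3, had 14.4, 9.49 and 14.4 CPM with pool A and 7.84, 9.86 and 15.1 CPM with pool B, and its log2 fold change of 0.36 ± 0.41 (SE) did not pass (edgeR adjusted p = 0.518). Isl2, the relative of Isl1, had counts of 1, 3 and 0 with pool A and 0 in each pool B library. Gata3 had counts of 11, 1 and 18 with pool A and 6, 0 and 0 with pool B, under the filter. Gata5 passed on low counts, 5, 10 and 0 with pool A against 33, 12 and 25 with pool B (log2 fold change -2.25 ± 0.76, SE; edgeR adjusted p = 0.0191). That call was lost without pool A replicate 1 or 3 and without pool B replicate 1 or 3 (adjusted p from 0.0630 to 0.0799), and the log2 fold change ran from -3.45 without pool A replicate 2 to -1.62 without pool A replicate 3. Pou2f2, a POU factor of lymphoid cells, averaged 28.4 ± 6.3 CPM in the pool A libraries (SD, n = 3) and 14.2 ± 2.3 CPM in those of pool B (SD, n = 3), and the log2 fold change was 1.15 ± 0.31 (SE).

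Other transcription factors of pituitary development gave mixed results. Of 30 listed, 28 were in the table, 10 had no count in any library, Hesx1 among them, and 13 were tested. Of these, 4 passed in favour of pool A and 1 passed in favour of pool B, 38.5% against 40.6% of all tested genes, and 8 did not pass. Neurod4, a helix-loop-helix factor of the somatotroph lineage, differed most. It had 369, 355 and 255 CPM with pool A and 72.6, 64.1 and 42.8 CPM with pool B, and the log2 fold change was 2.61 ± 0.19 (SE; edgeR adjusted p = 8.30e-12). The lowest pool A library of Neurod4 lay far above its highest pool B library.

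Sox2, the factor of pituitary stem cells, averaged 46.3 ± 5.0 CPM in the pool A libraries (SD, n = 3) and 23.3 ± 5.5 CPM in those of pool B (SD, n = 3) (log2 fold change 1.13 ± 0.24, SE). Foxo1, a forkhead factor of somatotrophs, had 39.5 ± 6.7 and 21.4 ± 4.1 CPM (SD, n = 3) with pools A and B (log2 fold change 1.05 ± 0.26, SE). Rbpj, the DNA-binding factor of Notch signalling, was higher with pool B, at 26.2 ± 9.9 CPM (SD, n = 3) against 9.6 ± 1.7 CPM (SD, n = 3). Its log2 fold change of -1.30 ± 0.36 (SE) came with an adjusted p of 0.00443 in edgeR, which became 0.056 without pool B replicate 1. Ets1 passed at 0.0437 on at most 17 counts in a library. That call was lost under 11 of 14 alternatives, among them the fits without any of pool A replicates 1, 2 and 3 or pool B replicates 2 and 3, and its adjusted p ranged from 0.0342 to 0.208. Zbtb20, needed for lactotrophs, had 123 ± 11 CPM and 114 ± 19 CPM (SD, n = 3) with pools A and B and did not pass (edgeR adjusted p = 0.203).

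Cofactors that POU, LIM, PITX and GATA factors work with were split between the directions. Of 25 listed, 23 were in the table and 18 were tested. Of these, 4 passed in favour of pool A and 3 in favour of pool B, 38.9% against 40.6%, with a median log2 fold change of 0.00. Gon4l, a nuclear corepressor component, averaged 384 ± 38 CPM in the pool A libraries (SD, n = 3) and 186 ± 23 CPM in those of pool B (SD, n = 3), and the log2 fold change was 1.18 ± 0.14 (SE; edgeR adjusted p = 5.55e-08). Crebbp, the acetyltransferase that Pou1f1 recruits, was also higher with pool A, with a log2 fold change of 0.69 ± 0.14 (SE). The coactivators Ncoa3 and Med1 were higher with pool B, with log2 fold changes of -0.62 ± 0.17 and -0.54 ± 0.15 (SE). Ldb1, the adaptor that LIM homeodomain proteins such as Lhx3 bind, had 185 ± 30 and 227 ± 31 CPM (SD, n = 3) with pools A and B and did not pass (edgeR adjusted p = 0.469).

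Receptors and signalling genes that govern lactotrophs and somatotrophs leaned to pool B. Of 32 listed, 30 had a row of their own, 9 had no count in any library and 18 were tested. Of these, 9 were higher with pool B and 1 was higher with pool A. Among all tested genes, 22.0% were higher with pool B and 18.6% with pool A. The share called was 55.6% against 40.6%, and the median log2 fold change was -0.49 against 0.02 over all tested genes. When 1 library was left out between 7 and 10 were called, the fewest without pool A replicate 2. The weakest of the 9 calls for pool B, at an edgeR adjusted p of 0.0443, was lost under most alternatives. Prkar1a, the regulatory subunit of protein kinase A, averaged 188 ± 11 CPM in the pool B libraries (SD, n = 3) and 41.1 ± 5.7 CPM in those of pool A (SD, n = 3), and the log2 fold change was -2.06 ± 0.16 (SE; edgeR adjusted p = 4.52e-11). Insr, Egfr and Tgfbr1, which encode the receptors for insulin, epidermal growth factor and TGF-beta, had log2 fold changes of -1.25 ± 0.15, -1.06 ± 0.19 and -2.03 ± 0.37 (SE). The exception was Trhr, the receptor for thyrotropin-releasing hormone, a releasing factor for prolactin. It had 155, 136 and 135 CPM with pool A and 98.2, 71.2 and 72.3 CPM with pool B, and the log2 fold change was 0.96 ± 0.17 (SE; edgeR adjusted p = 3.36e-05). Every pool A library of Trhr was above every pool B library, and 49.1% of all tested genes had CPM ranges that did not overlap in either direction. The receptors for dopamine (Drd2) and growth hormone-releasing hormone (Ghrhr) held 0 counts in all libraries.

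**Figure D5:**
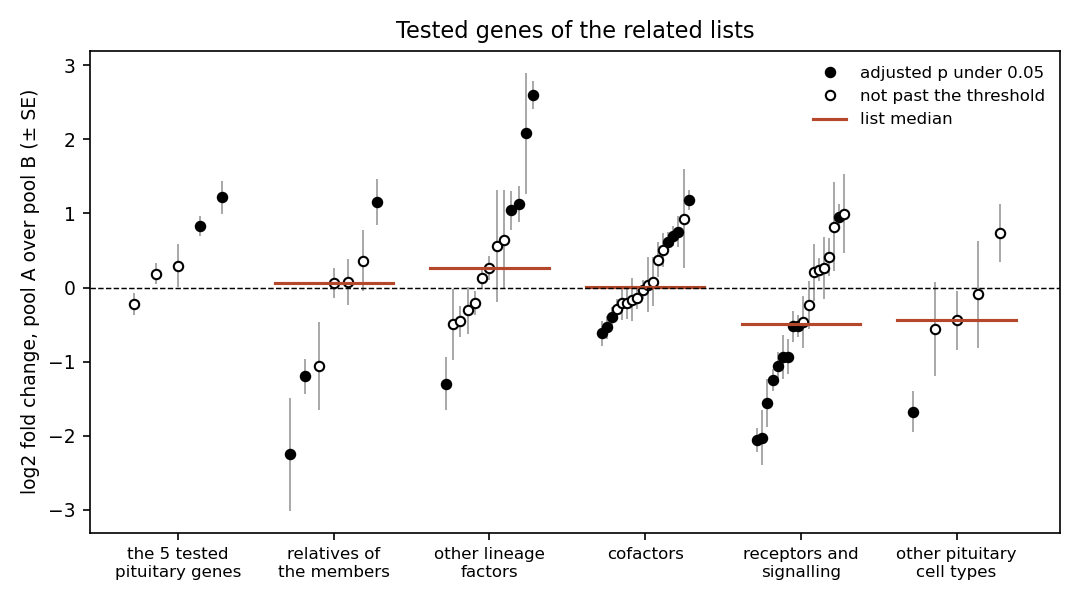
Log2 fold changes, pool A over pool B, ± SE, of the tested members and of the tested genes of 5 related lists. Filled points passed the threshold, open ones did not, and red lines are list medians; 9 receptor and signalling genes lie below 0 as filled points and 1 above.

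Most markers of other pituitary cell types did not pass the expression filter. Of 23 listed, 22 were in the table, 5 of these had no count in any library and 5 passed the filter. Their summed level was between 46.4 and 64.3 CPM with pool A and between 82.1 and 94.6 CPM with pool B, and its part in the differences of the members was not tested. Tshb and Fshb, which define thyrotrophs and gonadotrophs, were at 0 in all libraries, and Cga, the shared subunit of their hormones, had 3 counts in pool B replicate 3 and none elsewhere. Pomc, the corticotroph hormone gene, had counts of 11, 0 and 11 with pool A and 0, 4 and 0 with pool B. Lhb, the luteinizing hormone subunit gene, was the only marker past the threshold, 1 of 5 tested against 40.6% of all tested genes, and the median log2 fold change of the 5 was -0.44. Its counts were 39, 23 and 51 with pool A and 120, 73 and 119 with pool B, and the log2 fold change was -1.68 ± 0.28 (SE; edgeR adjusted p = 1.99e-05). Ruvbl2, in the next row, averaged 375 ± 35 CPM in the pool A libraries (SD, n = 3) and 111 ± 36 CPM in those of pool B (SD, n = 3), the opposite direction. In these bulk libraries of a cell line, fewer cells that make an RNA, less of it per cell and lower recovery by a pool cannot be told apart.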

How the data were processed

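The authors deposited 1 table of counts per gene, whole numbers that were taken as raw, and per the submitters' processing notes STAR and featureCounts were used. Versions, genome build, annotation and strand setting are not given in the sources used here. The table also holds other values, the authors' deposited mean per pool, which were not used. The 6 columns were matched to samples by title.

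Counts were fitted with edgeR 4.0.16 in R 4.3.3 (filter by group, TMM, quasi-likelihood, pool as the only term) over all genes, with two-sided p-values adjusted by Benjamini-Hochberg and a threshold of 0.05. Standard errors come from the fold change and the F statistic. Scripts were tested on simulated data. Alternatives were other scalings and filters, DESeq2 1.42.0, limma-voom (limma 3.58.1), a replicate block, thinned counts and each library left out. Gene length is not given, so levels were compared only within a gene.

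The members and the gene lists were chosen with earlier results of these data known. Besides the members, up to 5 genes past the threshold by adjusted p were named per list, together with defining hormones, close relatives of members and the 2 genes most like each judged member. Ldb1, Zbtb20, Drd2, Ghrhr, Hesx1 and the neighbouring rows were chosen after their values were seen. Gnas, whose name 2 rows share, was left out of its list. Values of some listed genes are not reported here. Libraries that share a replicate number did not deviate from their pool means together (r = 0.0410, -0.0202 and 0.0194), so they were treated as unpaired.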

Additional observations from a re-analysis of the deposited data

How the results depend on the processing

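Of 80 refits of the 5 tested members, 79 gave the reported direction and call. The exception was Lhx3, whose log2 fold change ran from -0.056 to 0.55 over the fits that omit 1 library. Of 70 recalculated ratios between members, 69 kept their direction, and Gh1 per Lhx3 ran from -0.45 to 0.18 on the log2 scale, turning without pool B replicate 3. Markers of other cell types past the threshold numbered 2 with no filter, with Ptprc added on counts of 6, 1 and 18 against 0, and from 1 to 2 over the fits that omit 1 library, with Dcn added without pool B replicate 3 (adjusted p = 0.0456). A fit with a replicate block called 2085 genes for pool A and 2476 for pool B and left every tested member's call as it was. Counts of called genes on the other lists and over all genes stayed within 1.5 times those reported. Of 364 refits of other named genes, 343 kept their call and 21 lost it, and none changed direction. Gata2 and Isl1 held no count and entered no refit.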
